A study of Mus musculus with 16 samples.

Results

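Genes of the cell-cell junctions, 10 in number, were followed across 4 genotypes of neonatal mouse brain. Their spots were taken by gene symbol in the annotation of the array's probes, and the genes were chosen with earlier results of these data known. The genes are the neural cadherin Cdh2, the catenins Ctnnb1, Jup, Ctnna1, Ctnna2 and Ctnnd1, the nectin Nectin3, its cytoplasmic adaptor Afdn, and the tight junction plaque proteins Tjp1 and Cgn. They are 10 of the 10225 genes named on the array, and they held 28 of its 28704 spots. Of these 28 spots, 26 had enough values to be tested, which left each of the 10 genes with at least 1 tested spot.

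Brain cDNA was hybridised on 16 two-colour arrays against one reference pool, made from several tissues (brain among them) of adult C57BL mice of both sexes. There were 4 arrays for each of 4 groups: wild type, labelled C57BL/6j; Cx43 null; Cx43 heterozygous; and Cx32 null, the mutant lines being labelled C57BL with no substrain. Cx43 (gene Gja1) and Cx32 (gene Gjb1) are connexins, the subunits of gap junctions. All brains were taken as neonatal, with no day given, though the sample titles of the Cx32 null arrays do not carry that word. The labels do not say whether an array held 1 animal or a pool. Nothing ties the replicates to separate animals, so a p-value here speaks of the spread among the arrays, and that spread may be technical. The brain was Cy3-labelled and the reference Cy5-labelled on 14 arrays, while the labels of wild-type replicates 3 and 4 name the dye of the reference alone. One channel label of wild-type replicate 3 carries the number of replicate 2, and its title was followed. In RNA from whole brain, fewer cells of a type and less RNA per cell cannot be told apart.

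In an adherens junction, a cadherin or nectin spans the membrane and binds its counterpart on the next cell. Beta-catenin (Ctnnb1) or plakoglobin (Jup) holds the cadherin tail and recruits alpha-catenin (Ctnna1, or Ctnna2 in neurons), which binds actin, while p120-catenin (Ctnnd1) keeps cadherin at the surface and afadin (Afdn) ties nectins to actin. Beta-catenin is also the transcriptional effector of canonical Wnt signalling, neural cadherin holds the radial glia of the developing brain together at their ventricular ends, and ZO-1 (Tjp1) binds the tail of Cx43 as well as tight junction proteins.

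Each value is a log ratio of brain to reference, centred here on its array's median. The sources used here state neither the log base nor which channel is the numerator, so folds hold if the base is 2, and "higher" and "lower" hold if brain is the numerator. On 16 of 16 arrays the median of the neuron markers lay above that of genes of the adult reference tissues. The ratios compare 1 gene between arrays and are not levels that can be set against another gene's. A difference was called where limma's adjusted p, over all 14292 transcripts tested, was under 0.05.

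The arrays carried between 21010 and 24819 spots with a value. Wild-type replicate 1 stood apart, with a median Pearson correlation of 0.69 with its own group, and Cx43 null replicate 1 correlated at 0.887 with the wild-type arrays and at 0.857 with its own group (medians of correlations over all spots with a value on both arrays). The median SD of a transcript was 0.386 in wild type, 0.27 in Cx43 null, 0.199 in Cx43 heterozygous and 0.214 in Cx32 null brain. Against wild type, Gja1 fell by 3.40 ± 0.37 (SE) in Cx43 null and fell by 2.93 ± 0.37 in Cx43 heterozygous brain, both on the log2 scale, with adjusted p = 0.000355 and 0.000115. Its values overlapped between these 2 groups (-2.92 to -0.60 in null, -1.86 to -1.09 in heterozygous), and it was also lower in Cx32 null brain, by 1.46 ± 0.37 (adjusted p = 0.00986). No value for Gjb1 was used here.

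The catenins Ctnnb1 and Jup were called lower than wild type in each of the 3 mutant lines. With only spots that had values on all 16 arrays, Ctnnb1 passed in no line (adjusted p = 0.0855, 0.114 and 0.0704). The Cx43 null calls of Ctnnb1 and Jup were lost in a fit of the 8 arrays compared. Cdh2 and Ctnna1 were called lower in the Cx43 heterozygous and Cx32 null lines, where their calls depended on the scaling or on single arrays. The Ctnna1 call in Cx32 null brain passed in 11 of 29 alternatives. None of the 10 genes was called higher in any line by limma, where 4.37%, 13.5% and 13.1% of all transcripts were. In Cx43 null brain 2 of the 10 were called lower, where 10.8% of all transcripts were called in either direction and 6.43% were called lower. In Cx43 heterozygous brain 4 of the 10 were called lower, where 31.0% of all transcripts were called and 17.5% were lower. Of all transcripts called in that line 43.6% were higher, and 62.7% were with values as deposited, under which 3 of the 10 genes were called lower. In Cx32 null brain the count was again 4, against 27.3% called in all and 14.3% lower. The median difference of the 10 genes was -0.05, -0.24 and -0.21 in these lines, beside 0.01, -0.02 and -0.03 over all transcripts. The values of 2, 3 and 3 of the 10 genes lay wholly below those of wild type, where the groups did not overlap, in either direction, for 12.9%, 31.1% and 27.8% of all transcripts. The 3 comparisons share the 4 wild-type arrays, so a gene that passed in several of them did not pass independently.

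**Figure D1:**
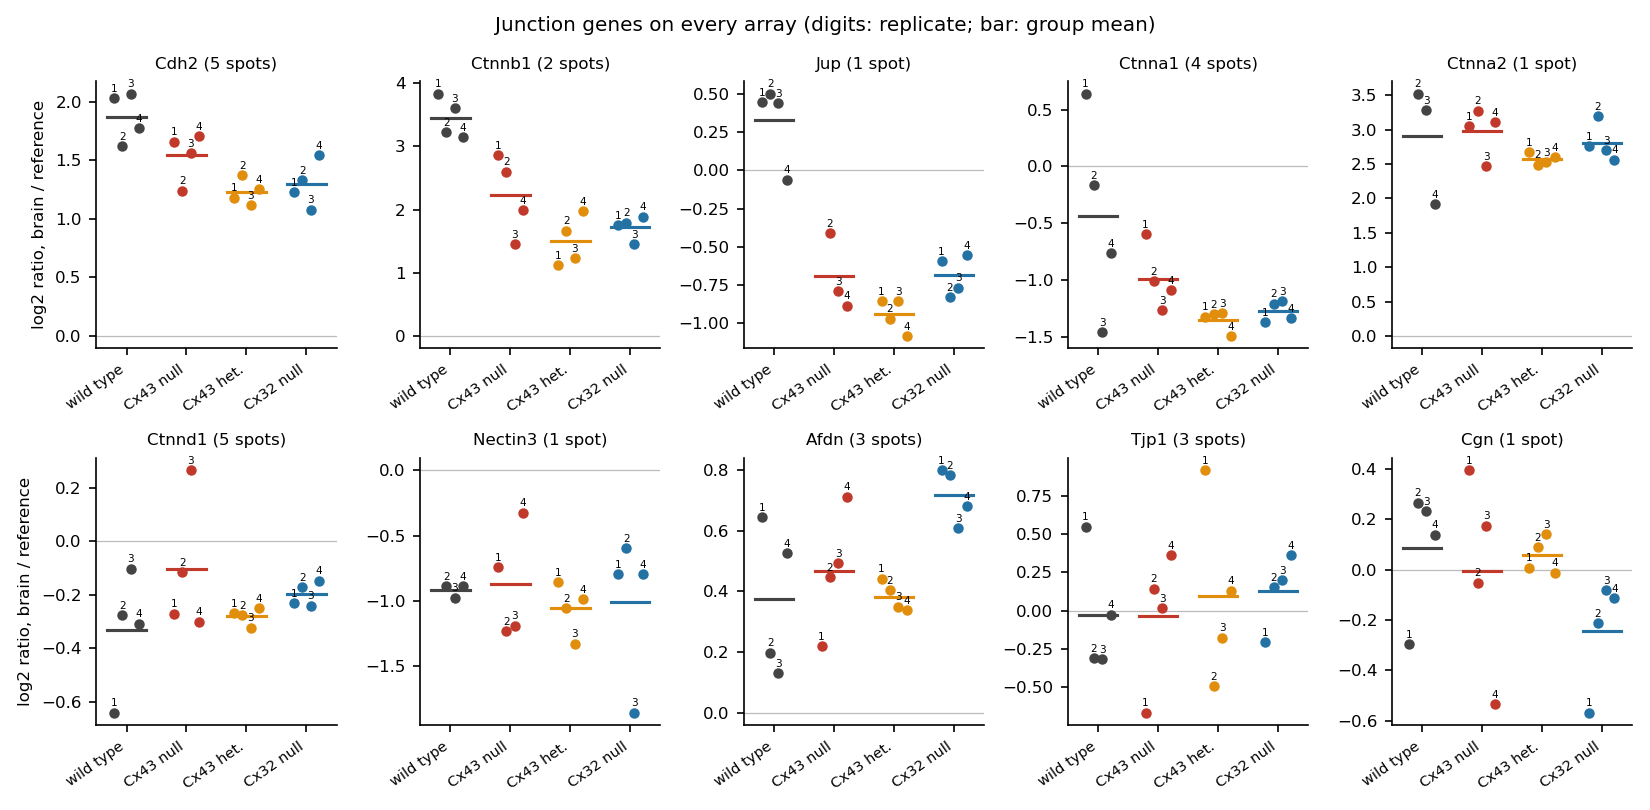
Log2 ratio of brain to reference (y axis, centred on the array median) for the 10 junction genes, 1 panel per gene, with 1 point per array, the digit giving the replicate and the bar the group mean. All mutant points of Ctnnb1 and of Jup lie below every wild-type point; the y axes differ between panels.

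Ctnnb1 (chr9:120933400-120960507, GRCm38.p6) was called lower in each line. Its log2 ratios in wild-type replicates 1 to 4 were 3.84, 3.23, 3.61 and 3.15. In Cx43 null brain they were 2.86, 2.60, 1.46 and 2.00. They were 1.13, 1.67, 1.23 and 1.98 in Cx43 heterozygous brain and 1.75, 1.79, 1.46 and 1.89 in Cx32 null brain. Every mutant array lay below every wild-type array, and within the Cx43 null line replicates 1 and 2 lay above replicates 3 and 4. Against wild type, the log2 difference was -1.23 ± 0.27 (SE) in Cx43 null brain, a 2.34-fold lower ratio (adjusted p = 0.016). It was -1.95 ± 0.27 in Cx43 heterozygous brain, 3.88-fold lower (adjusted p = 0.000195), and -1.73 ± 0.27 in Cx32 null brain, 3.32-fold lower (adjusted p = 0.000786). The Cx43 null call was lost without Cx43 null replicate 3 (adjusted p = 0.0701, the range over all its alternatives being 0.00343 to 0.147) and in a fit of the 8 arrays compared, where it was 0.147. Ctnnb1 passed in no line where only spots with values on all 16 arrays were used.

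Jup (chr11:100368856-100397839) encodes plakoglobin, the catenin that adherens junctions share with desmosomes, and it was read by 1 spot. Its log2 ratios were 0.44, 0.50, 0.44 and -0.06 in wild type. In the Cx43 null line replicate 1 had no value, and replicates 2 to 4 were at -0.41, -0.79 and -0.88. The 4 heterozygous arrays were at -0.85, -0.97, -0.85 and -1.08. The 4 Cx32 null arrays were at -0.59, -0.83, -0.77 and -0.55, so brain lay below the reference on all 11 mutant arrays with a value and above it on 3 of 4 wild-type arrays. The differences were -1.02 ± 0.19 (2.03-fold lower, adjusted p = 0.00895) in Cx43 null, -1.27 ± 0.17 (2.41-fold lower, adjusted p = 0.000195) in Cx43 heterozygous and -1.02 ± 0.17 (2.02-fold lower, adjusted p = 0.00137) in Cx32 null brain. Each of the 3 calls passed in 16 of 16 fits that left out 1 array. The Cx43 null call did not pass in a fit of the 8 arrays compared (adjusted p = 0.143, the range over its alternatives being 0.000578 to 0.143), in which no transcript reached the threshold (0 of 14292; 3061 were below 0.05 before adjustment).

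Ctnnb1 and Jup encode close relatives that occupy the same site on cadherin tails, and they moved together over the arrays. Their Pearson correlation was 0.91 over the 15 arrays with both values, which share the 4 groups and the reference. Their promoters are shown for that reason, as the 250 bases before the start of a listed RefSeq transcript (GRCm38.p6), less the 49 bases of the Jup window that lie inside the gene's own span, 5′ to 3′ on the gene's strand, with each CCAAT box (CCAAT or its reverse complement ATTGG) and each GC box (GGGCGG or CCGCCC) in capitals. The Ctnnb1 window is chr9:120933150-120933399 on the plus strand and the Jup window is chr11:100397840-100398040 on the minus strand.
Ctnnb1: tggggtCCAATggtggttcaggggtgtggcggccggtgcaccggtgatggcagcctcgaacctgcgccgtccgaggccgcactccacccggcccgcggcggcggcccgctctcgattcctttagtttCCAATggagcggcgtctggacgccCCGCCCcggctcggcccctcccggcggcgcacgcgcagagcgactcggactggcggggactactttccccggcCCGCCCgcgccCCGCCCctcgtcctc
Jup: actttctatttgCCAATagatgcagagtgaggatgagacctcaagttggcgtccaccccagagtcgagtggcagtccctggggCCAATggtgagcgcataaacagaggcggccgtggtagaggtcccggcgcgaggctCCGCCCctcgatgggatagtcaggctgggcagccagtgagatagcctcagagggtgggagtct

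The Ctnnb1 window held 2 CCAAT boxes and 3 GC boxes at a GC content of 74.8%, and the 201 bases shown for Jup held 2 CCAAT boxes and 1 GC box at 60.2%. Over 32851 mouse promoter windows of 250 bases, 33.8% held a CCAAT box and 32.7% a GC box on either strand. Of the 10 windows listed for 8 of the 10 genes, 5 held the former and 8 the latter. The E-box CAGGTG (or CACCTG), the element through which Snail proteins are known to repress E-cadherin, lay in neither printed window, in 1 of the 10 windows and in 17.2% of all windows. These matches describe the letters of the windows.

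Ctnnb1's 3 spots gave unequal differences. Spot 27149 had no value in wild-type replicate 1 and stood at 4.70, 5.45 and 4.57 in wild-type replicates 2 to 4. It stood at 4.44, 3.96, 2.00 and 2.57 in Cx43 null, at 1.56, 1.37, 1.70 and 1.70 in Cx43 heterozygous and at 2.04, 2.26, 1.74 and 2.66 in Cx32 null brain. Tested alone, it fell by 1.66, 3.32 and 2.73 in these lines, with adjusted p = 0.0265, 0.000125 and 0.000706. Its wild-type values did not overlap those of any line, and the Cx43 null arrays split into a pair near wild type and a pair near the other lines.

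Spot 20504 of Ctnnb1 passed in none of the 3 lines (adjusted p = 0.088, 0.114 and 0.0715). Its wild-type values were 3.84, 1.76, 1.76 and 1.73, so replicate 1 was far above the other wild-type arrays. This spot alone gave the gene's value in wild-type replicate 1, since the others had none there. Its differences were -1.06, -0.853 and -1.0, and these are the gene's values where only spots with values on all 16 arrays are used. With each spot's own offset removed before averaging, the gene's differences were -1.41, -2.13 and -1.91 and all 3 passed (adjusted p = 0.0171, 0.00028 and 0.00107). That step evens the levels of the spots, but wild-type replicate 1 still rests on its outlying value at spot 20504 alone. Spot 25948 had only 2 wild-type values, 3.75 and 3.21, and was not tested. Its 4 heterozygous values ran from 1.39 to 2.08 and its Cx32 null values from 1.59 to 2.16, all below those 2, while Cx43 null replicates 1 and 2 were at 3.68 and 3.34 and replicates 3 and 4 at 2.35 and 2.73. Over the arrays, the tested pair of spots correlated at 0.275.

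**Figure D2:**
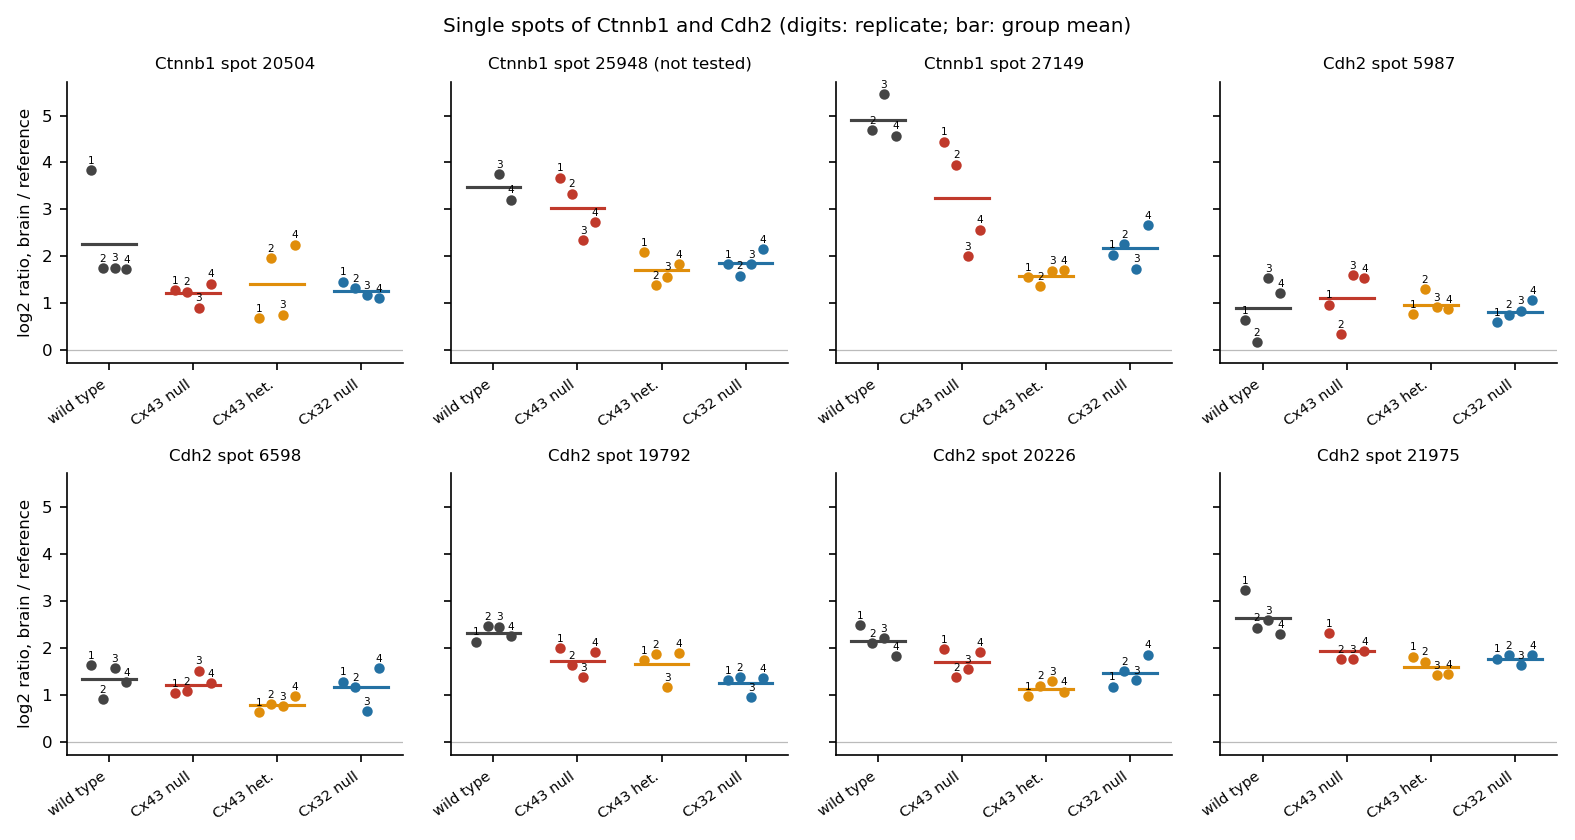
Log2 ratio (y axis, the same in all panels) of the 3 Ctnnb1 spots and 5 Cdh2 spots in the 4 genotypes, with 1 point per array, the digit giving the replicate and the bar the group mean. Ctnnb1 spot 27149 falls from 4.57 to 5.45 in wild type to 1.37 to 1.70 in Cx43 heterozygous brain, while spot 20504 overlaps between these groups.

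Cdh2, neural cadherin, was lower in the Cx43 heterozygous and Cx32 null lines under centring on the array median. Its log2 ratios were 2.03, 1.62, 2.07 and 1.77 in wild type and 1.66, 1.24, 1.56 and 1.71 in Cx43 null brain. They were 1.18, 1.38, 1.12 and 1.25 in Cx43 heterozygous brain and 1.23, 1.33, 1.08 and 1.54 in Cx32 null brain. The heterozygous and Cx32 null arrays lay below all wild-type arrays, and the Cx43 null arrays overlapped them. The differences were -0.64 ± 0.17 (1.56-fold lower, adjusted p = 0.00903) and -0.58 ± 0.17 (1.49-fold lower, adjusted p = 0.0185), and in Cx43 null brain the value was -0.33 ± 0.17 (adjusted p = 0.187). These calls depended on the scaling. With cyclic loess the adjusted p was 0.0828 in Cx43 heterozygous and 0.11 in Cx32 null brain, with quantile scaling 0.134 and 0.308, and with values as deposited 0.0569 and 0.0522. Over all alternatives the adjusted p ran from 0.00838 to 0.134 in the first and from 0.0162 to 0.308 in the second. Without Cx32 null replicate 3 the Cx32 null value missed the threshold at 0.0569.

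Cdh2's 5 spots did not all show the difference. Spots 19792, 20226 and 21975, whose wild-type means were 2.33, 2.15 and 2.64, were each called lower in both of these lines. In Cx43 heterozygous brain their differences were -0.66, -1.02 and -1.04 (adjusted p = 0.0194, 0.00158 and 0.0016). In Cx32 null brain they were -1.08, -0.69 and -0.87 (adjusted p = 0.00162, 0.0179 and 0.0063). Spot 21975 was also called lower in Cx43 null brain, by 0.70 (adjusted p = 0.039). Spots 5987 and 6598, with wild-type means of 0.90 and 1.35, passed in no line, and the correlation between pairs of the 5 spots over the arrays ran from -0.07 to 0.87.

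Ctnna1, the widely expressed alpha-catenin, was called lower in Cx43 heterozygous brain by 0.91 ± 0.30 (adjusted p = 0.0293) and in Cx32 null brain by 0.84 ± 0.30 (adjusted p = 0.0472). Its log2 ratios in wild type were 0.64, -0.17, -1.46 and -0.76. In Cx43 null brain they were -0.60, -1.01, -1.26 and -1.08. The heterozygous arrays lay between -1.49 and -1.29 and the Cx32 null arrays between -1.37 and -1.18. Wild-type replicate 3 lay within these ranges or below them, while the other 3 wild-type arrays lay above all heterozygous and Cx32 null arrays.

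That low wild-type value came from 1 of the 4 Ctnna1 spots. Spot 24403 stood at 3.04, 2.23, -2.89 and 0.56 in the 4 wild-type arrays. It lies in a run of 598 spots, numbers 23921 to 24518, in which wild-type replicate 3 correlated at 0.224 with the median of the other arrays. Shifted by 26 spots, which is 1 row of the layout, the same values correlated at 0.854. Read at the shifted position, spot 24403 in wild-type replicate 3 was at 2.45. The gene's wild-type values then became 0.64, -0.17, -0.12 and -0.76, and the differences were -0.88 in Cx43 null (adjusted p = 0.0253), -1.25 in Cx43 heterozygous (adjusted p = 0.00105) and -1.17 in Cx32 null brain (adjusted p = 0.00237). With that spot left out they were -0.32, -0.54 and -0.50, with adjusted p = 0.257, 0.0391 and 0.0589. Over all its alternatives Ctnna1's adjusted p ran from 0.00358 to 0.627 in Cx43 null, from 0.000302 to 0.0981 in Cx43 heterozygous and from 0.00062 to 0.141 in Cx32 null brain.

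**Figure D3:**
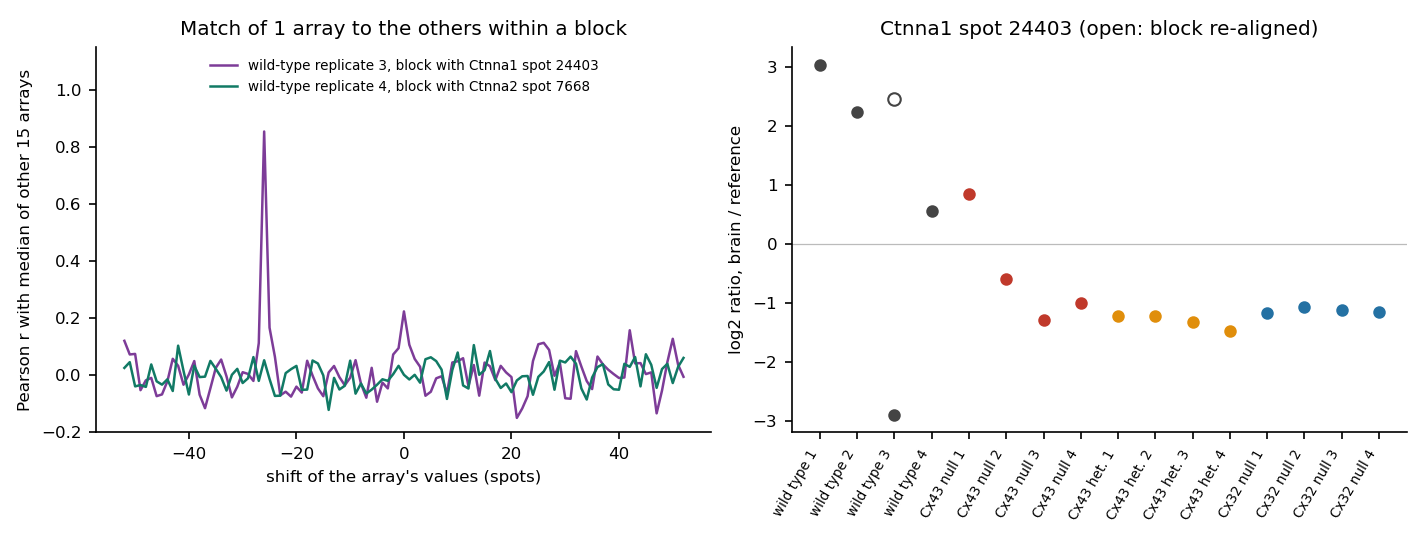
Left, Pearson correlation of 1 array with the median of the other 15 within a run of 598 spots (y axis) against the shift applied to its values in spots (x axis); wild-type replicate 3 peaks at a shift of -26, and wild-type replicate 4 has no peak. Right, log2 ratio of Ctnna1 spot 24403 on each array, with the open circle giving wild-type replicate 3 at the shifted position, 2.45 in place of -2.89.

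Of the other Ctnna1 spots, 13357 was called lower by 0.98 in Cx43 heterozygous (adjusted p = 0.00948) and by 0.85 in Cx32 null brain (adjusted p = 0.0217). Its wild-type values were 0.291, -0.864, -1.15 and -1.365, so replicate 1 was far above the other wild-type arrays. Spots 3837 and 9143 passed in no line. The gene-level call was lost in Cx32 null brain with values as deposited (adjusted p = 0.0507) and with quantile scaling (0.0564). It passed in 10 of 16 fits that left out 1 array in Cx43 heterozygous brain and in 3 of 16 in Cx32 null brain. Wild-type replicate 1 gave the highest value of the gene. Without that array the Cx43 null difference was -0.193 (adjusted p = 0.627).

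Ctnna2, the neuronal alpha-catenin (chr6:76881637-77979815), passed in no line. Its 1 spot had wild-type values of 3.52, 3.28 and 1.92 in replicates 2 to 4 and none in replicate 1. The Cx43 null arrays were at 3.05, 3.28, 2.47 and 3.11. The heterozygous arrays lay between 2.49 and 2.67, and the Cx32 null arrays between 2.56 and 3.20. The spot lies in another run of 598 spots in which wild-type replicate 4 correlated at 0.002 with the other arrays, and its best correlation at any shift tried was 0.106. The lowest of the wild-type values is from that array. The differences were 0.07 ± 0.30, -0.33 ± 0.30 and -0.10 ± 0.30 in Cx43 null, Cx43 heterozygous and Cx32 null brain. Without wild-type replicate 4 they were -0.42, -0.83 and -0.60, and the heterozygous value passed (adjusted p = 0.0136, the range over its alternatives being 0.0136 to 0.962).

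Ctnnd1, p120-catenin (chr2:84587096-84658977), had 5 spots and differences close to 0: 0.23 ± 0.16, 0.05 ± 0.16 and 0.13 ± 0.16, none of which passed. Its group means of the log2 ratio ran from -0.33 ± 0.22 (SD, n = 4) in wild type to -0.10 ± 0.26 in Cx43 null brain, and the values of each mutant line overlapped those of wild type. Single spots went both ways. Spot 2746 was called higher in Cx43 null (by 0.87, adjusted p = 0.0346) and in Cx32 null brain (by 0.68, adjusted p = 0.0474), and spot 4593 was called lower in Cx43 heterozygous (by 0.60, adjusted p = 0.0304) and in Cx32 null brain (by 0.56, adjusted p = 0.0472). Pairs of the 5 spots correlated between -0.42 and 0.64 over the arrays.

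The nectin arm did not pass at the level of the gene. Nectin3 (chr16:46387665-46498535), a membrane protein that binds nectin 1 on the next cell, had means of -0.92 ± 0.05 in wild type (SD, n = 3), -0.87 ± 0.43 in Cx43 null, -1.06 ± 0.20 in Cx43 heterozygous and -1.01 ± 0.57 in Cx32 null brain (n = 4 each). Its differences from wild type were 0.05, -0.14 and -0.09, each smaller than its SE of 0.28. Cx32 null replicate 3, at -1.85, lay below all other arrays.

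Afdn (chr17:13760391-13905798) had gene means of 0.37 ± 0.25 in wild type, 0.47 ± 0.20 in Cx43 null, 0.38 ± 0.05 in Cx43 heterozygous and 0.72 ± 0.09 in Cx32 null brain (SD, n = 4). The Cx32 null difference was 0.34 ± 0.16, with adjusted p = 0.116, and it passed in 3 of 29 alternatives (adjusted p from 0.00761 to 0.245 over them). A pair of its 3 tested spots was called higher in Cx32 null brain when each spot was tested alone. Spot 22797 stood at -0.07, -0.20, -0.23 and 0.23 in wild type and at 0.57, 1.00, 0.60 and 0.67 in Cx32 null brain (0.78 higher, adjusted p = 0.00634). Spot 3540 stood at -1.44, -0.69, -0.46 and -0.18 in wild type and at 0.21, 0.08, 0.02 and 0.35 in Cx32 null brain (0.86 higher, adjusted p = 0.0133). For both spots the Cx32 null values lay above all wild-type values. The third, spot 3605, pointed the other way, at -0.60 (adjusted p = 0.202), and its wild-type replicate 1 stood at 3.45 against 1.08 to 1.53 in the other wild-type arrays. Afdn's remaining spot had a value on 1 array and was not tested.

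The tight junction plaque genes passed in no line at the level of the gene. Tjp1, which encodes ZO-1 (chr7:65296165-65527850), had means of -0.03 ± 0.41 in wild type, -0.04 ± 0.44 in Cx43 null, 0.09 ± 0.60 in Cx43 heterozygous and 0.13 ± 0.24 in Cx32 null brain (SD, n = 4). Its differences from wild type were -0.01, 0.12 and 0.15 with an SE of 0.29, and the 95% interval of the Cx43 null difference ran from -0.61 to 0.59. One of its 3 spots, 9334, was called higher in Cx43 heterozygous brain, by 1.71 (adjusted p = 0.036). That spot stood at -0.45, 0.53 and 0.00 in the 3 wild-type arrays with a value and at 3.11, 0.69 and 1.40 in the 3 heterozygous arrays with one, so replicate 1 was far above the other heterozygous arrays. Spots 7860 and 12719 of Tjp1 passed in no line.

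Cgn encodes cingulin, which links ZO-1 to actomyosin (chr3:94760069-94787725), and was read by 1 spot. Its wild-type values were -0.29, 0.27, 0.23 and 0.14, and its Cx32 null values were -0.57, -0.21, -0.08 and -0.11. The groups overlapped, because wild-type replicate 1 lay below 3 of the 4 Cx32 null arrays. The Cx32 null difference was -0.33 ± 0.20, and those of Cx43 null and Cx43 heterozygous brain were -0.09 ± 0.20 and -0.03 ± 0.20, none of which passed. Over all 16 arrays Cgn and Afdn correlated at -0.85.

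**Figure D4:**
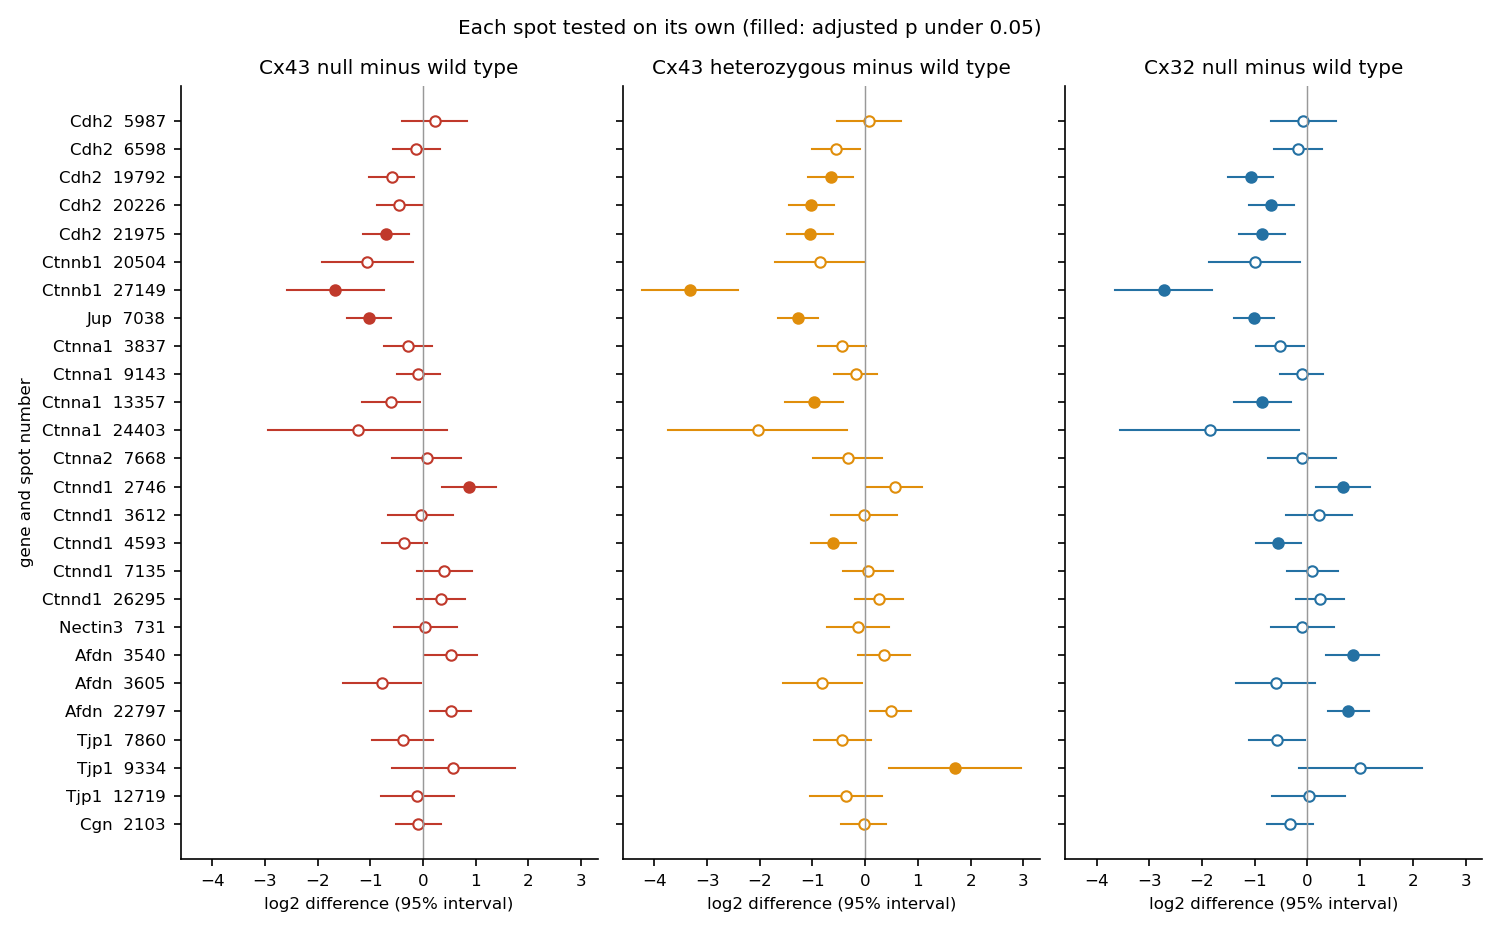
Log2 difference from wild type (x axis) with its 95% interval for each of the 26 tested spots (rows, by gene), 1 panel per mutant line, filled where the adjusted p over 19951 spots was under 0.05. Filled points lie left of 0 for Cdh2, Ctnnb1, Jup and Ctnna1, on both sides for Ctnnd1, and right of 0 for Afdn and Tjp1.

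Over the 26 spots tested one at a time, 3 were called lower and 1 higher in Cx43 null brain, where 11.7% of 19951 spots were called. In Cx43 heterozygous brain 7 were lower and 1 higher against 33.0% called, and in Cx32 null brain 7 were lower and 3 higher against 29.6%. In the Cx43 heterozygous line the calls lower fell on Cdh2 (3 spots), Ctnnb1, Jup, Ctnna1 and Ctnnd1 (1 each).

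The 3 mutant lines were also compared with each other, and 0 of the 10 genes passed limma's test in any of the 3 comparisons. Over all transcripts 1.46% passed between Cx43 null and Cx43 heterozygous, 0.0840% between Cx43 null and Cx32 null, and 1.23% between Cx43 heterozygous and Cx32 null brain. At an unadjusted p under 0.05 the counts of the 10 genes were 1, 0 and 0, beside 1954, 1303 and 1625 of all 14292 transcripts. The 1 gene of the 10 was Ctnnb1, 0.73 ± 0.27 higher in Cx43 null than in heterozygous brain (adjusted p = 0.231, 95% interval 0.16 to 1.30). Its Cx43 null minus Cx32 null difference was 0.51 ± 0.27 (95% interval -0.07 to 1.08). With arrays weighted by their agreement with their group, Ctnnb1 and Jup both passed as higher in Cx43 null than in heterozygous brain. For Jup the interval of the Cx43 null minus Cx32 null difference was -0.40 to 0.39, and for Cdh2 it was -0.10 to 0.60.

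Markers of other cell types were read on the same arrays. Of 10 markers of meninges and fibroblasts 9 were measured, and the median of their log2 ratios on an array ran from 0.24 to 0.52 in wild type, from -0.44 to 0.30 in Cx43 null, from -0.46 to -0.17 in Cx43 heterozygous and from -0.44 to -0.07 in Cx32 null brain. Called lower were 2, 3 and 3 of the 9 in these lines, with 0, 1 and 0 higher, where 10.8%, 31.0% and 27.3% of all transcripts were called. The median differences of these 9 markers were -0.35, -0.11 and -0.03. Of 9 markers of skin epithelium, a tissue rich in Jup, 1 was measured, Krt10, a keratin of the upper epidermis. It lay between -1.72 and 0.09 in wild type and between -3.66 and -1.90 over the mutant arrays, and it was called lower in all 3 lines. Of 12 endothelial markers 5 were measured, and 0, 1 and 0 of them passed, each higher. Of 10 neuron markers 6 were measured, with median differences of 0.11, 0.14 and 0.06, of which 0, 1 and 1 were called lower and 0, 1 and 0 higher. Microglia had 4 of 9 markers measured, with 2, 2 and 2 lower and 0, 2 and 1 higher and median differences of -0.15, -0.26 and -0.37. Choroid plexus had 5 of 10, with 1, 1 and 1 lower and 0, 2 and 1 higher and median differences of 0.58, 0.64 and 0.44. Of 4 measured astrocyte and radial glia markers 0, 1 and 0 were lower and 0, 1 and 0 higher. The 1 measured oligodendrocyte marker was called lower in the Cx43 heterozygous and Cx32 null lines, and of 6 genes of the adult reference tissues 0, 0 and 1 were lower. The part of these cells in the differences of Ctnnb1, Jup, Cdh2 and Ctnna1 was not tested.

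The genes whose ratios followed a junction gene most closely over the arrays were taken from all named genes. For Ctnnb1 they were Litaf, a protein of endosomal membranes, at r = 0.951, Errfi1, an inhibitor of the EGF receptor, at 0.944, and Mgst3, a microsomal glutathione transferase, at 0.941. For Jup they were Fdft1 (squalene synthase) at 0.974, Hspd1 (the mitochondrial chaperonin) at 0.966 and Cops6 (a COP9 signalosome subunit) at 0.963, over 15 arrays. Cdh2 was followed by Zmym2 at 0.881, Hnrnpu at 0.871 and Daam2 at 0.869, and Ctnna1 by Mrpl48 at 0.944, Bnip3l at 0.939 and Pfdn6 at 0.937. Between junction genes, Cdh2 correlated at 0.82 with Ctnnb1 and at 0.74 with Jup. The best partners of the remaining genes were Snx13 for Ctnna2 (0.864), Bach1 for Ctnnd1 (0.868), Tcea3 for Nectin3 (0.865), Snrpa1 for Afdn (0.917), Ncs1 for Tjp1 (0.898) and Pld2 for Cgn (0.872). These are descriptions over 14 to 16 arrays that share the reference and the 4 groups, picked as the highest among all named genes.

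Around the 10 genes, 7 lists of 150 other junction and beta-catenin pathway genes were counted, of which 76 were measured. In Cx43 null brain 3 of the 76 were called lower and 3 higher, which is 7.89% beside the 10.8% of all transcripts. In Cx43 heterozygous brain 9 were lower and 11 higher (26.3% beside 31.0%), and in Cx32 null brain 9 were lower and 13 higher (28.9% beside 27.3%). The other cadherins that were called differed from Cdh2 in sign. Of 8 measured, 0 were lower in any line and 2, 3 and 4 were higher in the Cx43 null, Cx43 heterozygous and Cx32 null lines, with list medians of 0.24, 0.38 and 0.41. With values as deposited, quantile scaling or cyclic loess, 0 were again called lower and between 1 and 4 were called higher in a line. Cdh1 had the sign of Cdh2 without passing, at -0.66, -0.63 and -0.71 in these lines (adjusted p = 0.126, 0.101 and 0.0723). So did Cdh5, at -0.23, -0.14 and -0.17. Cdh18, a type II cadherin of neurons, was higher by 1.90 ± 0.32 in Cx43 heterozygous (adjusted p = 0.000963) and by 1.80 ± 0.32 in Cx32 null brain (adjusted p = 0.00209). It was read by 1 spot, with 3 values each in wild-type, Cx43 heterozygous and Cx32 null brain. Cdh4, the retinal cadherin, was higher by 1.11 ± 0.39 in Cx32 null brain (adjusted p = 0.0436). Cdh16, the kidney cadherin, and Cdh22 were the pair called higher in Cx43 null brain, by 0.91 ± 0.25 and 0.75 ± 0.20. Both were also called in the other lines, Cdh16 by 0.81 and 0.74 and Cdh22 by 0.55 and 0.63 in Cx43 heterozygous and Cx32 null brain.

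Of 13 measured catenin relatives and adherens junction linkers, 2, 4 and 5 were called lower and 0, 2 and 1 higher. The share called was 15.4%, 46.2% and 46.2%, beside 10.8%, 31.0% and 27.3% of all transcripts, of which 6.43%, 17.5% and 14.3% were lower. Ctnnal1 (alpha-catulin) was lower in all 3 lines, by 1.07, 1.06 and 1.05 (adjusted p = 0.0161, 0.00385 and 0.00543). Ctnnbl1, a nuclear protein that shares the catenin name through its armadillo repeats, also fell in all 3, by 0.95, 1.17 and 0.78. Zyx (zyxin, of focal adhesions and actin) fell by 1.53 ± 0.28 in Cx43 heterozygous brain (adjusted p = 0.00103) and by 1.03 in Cx32 null brain, and Lmo7, an afadin-binding protein, fell by 1.04 in Cx32 null brain. Higher were Ctnna3, the alpha-catenin of heart and testis, by 1.03 in Cx43 heterozygous and 0.86 in Cx32 null brain, and Plekha7, which binds p120-catenin, by 0.89 in Cx43 heterozygous brain.

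Of 7 measured desmosome genes, where plakoglobin also acts, 1, 2 and 2 were called lower and 0, 0 and 1 higher, which is 14.3%, 28.6% and 42.9% beside 10.8%, 31.0% and 27.3% of all transcripts. Pkp4, an armadillo protein related to p120-catenin, was lower in all 3 lines, by 0.79, 1.03 and 0.87 (adjusted p = 0.035, 0.0031 and 0.00973). Evpl (envoplakin), which is known from stratified epithelium, fell by 1.06 ± 0.17 in Cx43 heterozygous and by 1.28 ± 0.17 in Cx32 null brain, and Perp was 0.69 higher in Cx32 null brain. The 4 measured nectins and nectin-like genes passed in no line under centring on the median, and under each of the other 3 scalings 1 was called higher in Cx43 heterozygous brain.

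Of 13 measured tight junction membrane genes 0, 1 and 2 were called lower and 0, 2 and 1 higher. The share called was 0.00%, 23.1% and 23.1%, beside 10.8%, 31.0% and 27.3% of all transcripts. F11r (junctional adhesion molecule A) was lower by 1.53 ± 0.20 in Cx43 heterozygous (adjusted p = 0.000125) and by 0.97 ± 0.20 in Cx32 null brain (adjusted p = 0.003), and Cldn3 fell by 0.62 in Cx32 null brain. Cldn5, the claudin of brain endothelium, was higher by 0.89 ± 0.27 in Cx43 heterozygous brain (adjusted p = 0.0197), and Cldn15 was higher in that line and in Cx32 null brain, by 0.78 in each. Of 17 plaque and polarity genes 0, 2 and 0 were lower and 0, 1 and 2 higher, a share called of 0.00%, 17.6% and 11.8%. With values as deposited, 4 membrane genes were called higher in Cx43 heterozygous and 5 plaque genes higher in Cx32 null brain. Under that scaling 62.7% of all transcripts called in the first line and 57.2% in the second were higher, in place of 43.6% and 47.9%. The polarity kinase Prkcz fell by 0.93 and the Y-box protein Ybx3 by 1.10 ± 0.39 (adjusted p = 0.0421) in Cx43 heterozygous brain. Ybx3 stood at 1.40 in wild-type replicate 1 and at -0.65, -1.08 and -1.19 in wild-type replicates 2 to 4. Its heterozygous values ran from -1.61 to -1.24. Pard6b, which binds Prkcz, was 0.83 higher in Cx43 heterozygous and Cx32 null brain, and Crb2 was 0.87 higher in Cx32 null brain.

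Of 14 measured genes of the beta-catenin destruction complex and its nuclear partners, 0 were called lower in any line and 1, 3 and 4 were called higher, with list medians of 0.14, 0.22 and 0.18. These were 7.14%, 21.4% and 28.6% of the 14. Of all transcripts 4.37%, 13.5% and 13.1% were called higher, and 10.8%, 31.0% and 27.3% in either direction. Under the other 3 scalings 0 of the 14 were lower and between 1 and 5 were higher in a line. Apc, the scaffold of that complex, was higher by 0.81 ± 0.25 (adjusted p = 0.0232) and Bcl9, a co-activator of beta-catenin, by 0.91 ± 0.27 (adjusted p = 0.0231) in Cx32 null brain. That was the only call on a gene of the destruction complex itself, Apc, and the other calls fell on nuclear partners. Bcl9l was higher in all 3 lines, by 0.78, 0.74 and 0.71, and Tcf7l1, a repressor at Wnt targets, by 0.86 in Cx43 heterozygous and 0.76 in Cx32 null brain. The transcript of Ctnnb1 itself was lower in these same lines, as given above.

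**Figure D5:**
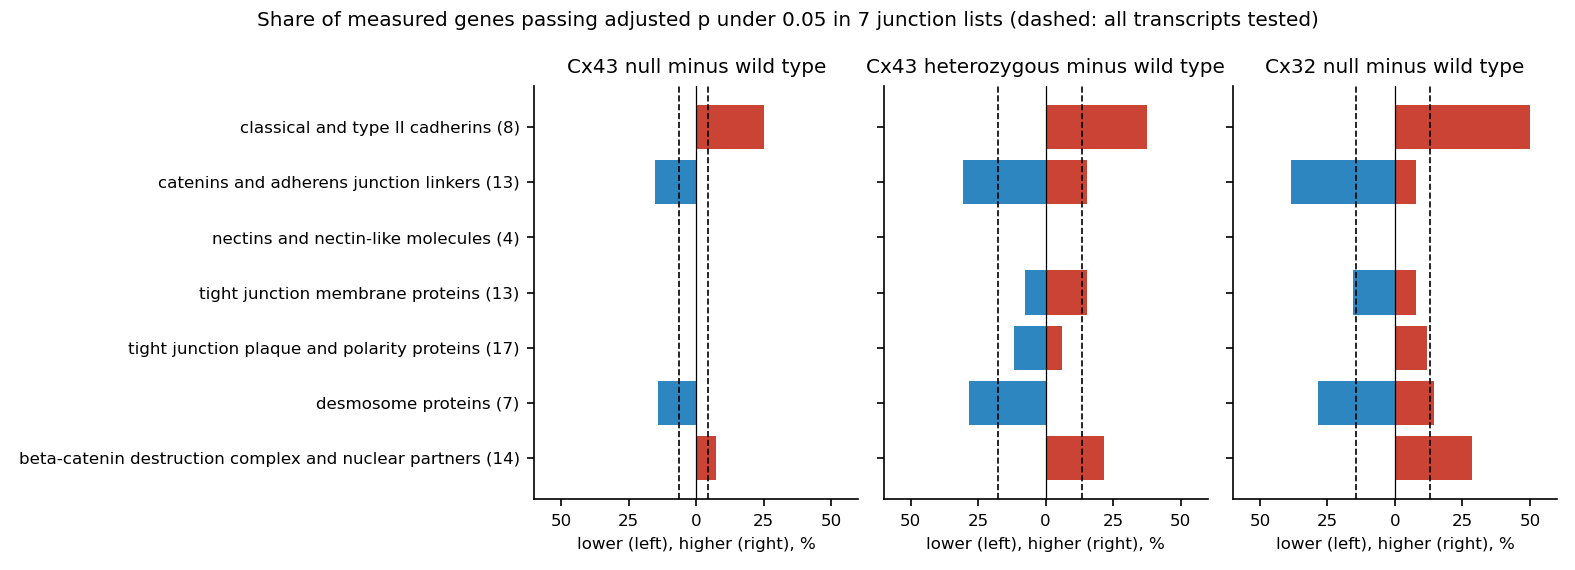
Share of measured genes in each of 7 junction lists (number measured in brackets) that were called lower (bars to the left) or higher (bars to the right) than wild type, in percent, 1 panel per mutant line; dashed lines give the shares over all 14292 transcripts. The cadherin list and the list of the destruction complex with its nuclear partners have bars to the right alone in all 3 panels. In the latter, Apc in Cx32 null brain is the only destruction complex gene called. The nectin list has no bar. These are calls after centring on the median.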

How the data were processed

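Values were the deposited table of the authors, 1 log ratio per spot and array, taken as log2; the labels name the dyes and samples, and scanner, background correction, log base and within-array normalization are not given in the sources used here. Spots were named through the platform annotation and RefSeq (18511 of 28704 spots; 937 had several symbols and 9256 no entry). Array medians (-0.13 to 0.28) were subtracted. Spots with at least 3 of 4 values in each group were kept (19951), spots of 1 gene were averaged, and 14292 transcripts (8654 named genes, 5638 unnamed spots) were fitted over all 16 arrays with limma 3.58.1 in R 4.3.3 (lmFit, eBayes, 2-sided, Benjamini-Hochberg adjustment over all transcripts). A missing spot drops out of its gene's mean. The fit was tested on simulated data. The number of arrays limits the precision.

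The genes and lists were chosen with earlier results of these data known. Named are the 10 genes, up to 2 passing genes per list, line and direction by size, each gene's 3 closest correlates (fewer are printed), and Gja1. In runs of 598 spots (48 in all), an array correlating under 0.5 with the others counted as out of step. Alternatives covered scaling, filters, single spots, arrays in the fit, spread, the replicate block and leaving out arrays; removing spot offsets and re-aligning displaced runs were chosen after seeing the data. Of the listed genes, F11r and Ybx3 also have a spot in a run out of step.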

Additional observations from a re-analysis of the deposited data

Results flagged for a closer look

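Groups of 4 arrays were examined for 1 array far from the other 3, by the gap to its neighbour over the group's range (Dixon's limit), for each gene and each of its spots. Of 120 such groups 9 had one, and chance flags about 1 in 20.

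For Ctnnb1 spot 20504, wild type replicate 1 stood at 3.84 and the other wild-type arrays at 1.73 to 1.76. For Jup, wild type replicate 4 was at -0.0616 against 0.439 to 0.501. For Ctnna1, Cx43 heterozygous replicate 4 was at -1.49 against -1.32 to -1.29, and at spot 9143 Cx43 null replicate 1 was at -1.53 against -1.29 to -1.26. For Cdh2 spot 19792, Cx32 null replicate 3 was at 0.948 against 1.31 to 1.38, and for Nectin3 the same array was at -1.85 against -0.795 to -0.598. For Ctnnd1 spot 7135 it was at -0.327 against -0.166 to -0.141, and wild type replicate 3 was at 0.471 there against -0.594 to -0.475. For Ctnnd1 spot 3612, wild type replicate 1 was at -1.04 against 0.357 to 0.541. Cx32 null replicate 3 and wild type replicate 1 were thus the far array in 3 and 2 of the 9 groups. The causes were not tested.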

How the results depend on the processing

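Over 858 values of the 10 genes under alternatives, 771 kept their direction and side of the threshold, 40 no longer passed, 10 newly passed and 37 changed sign, none of the 37 with a pass on either side. The number of the 10 genes called in Cx43 null brain (2) was 0 with values on all 16 arrays, which leaves Ctnnb1 with 1 spot and drops Jup, 0 with only the 8 arrays compared, 1 where every spot was tested on its own and a gene was counted if more than 50% of its tested spots were called in 1 direction, and 1 to 3 when 1 array was left out. In Cx43 heterozygous brain (4) it was 2 with values on all 16 arrays, 2 by that count over single spots, and 3 to 5 with 1 array left out. In Cx32 null brain (4) it was 2 as deposited, 2 with values on all 16 arrays, 2 with the 8 arrays compared, and 2 to 4 with 1 array left out. Between Cx43 null and heterozygous brain (0) it was 2 with array weights. Of the 76 list genes, 6 in Cx43 null brain became 0 with the 8 arrays compared, 21 with array weights, 16 without wild-type replicates 3 and 4, and 0 (without Cx43 null replicate 3) to 16 (without wild-type replicate 4) with 1 array left out. In Cx32 null brain 22 became 12 with the 8 arrays compared and 13 to 25 with 1 left out (13 without wild-type replicate 1), and in heterozygous brain 20 became 15 to 23. Of all transcripts in Cx43 null brain, 1543 became 0 with the 8 arrays compared, 4056 with array weights and 3769 without wild-type replicates 3 and 4. Without 1 wild-type array they became 828 (replicate 1), 485 (replicate 2) or 2989 (replicate 4), and without 1 Cx43 null array 2447, 508, 114 or 584 (replicates 1 to 4). The 3908 of Cx32 null brain became 2256 with the 8 arrays compared. Between lines, array weights gave 1802, 514 and 873 in place of 208, 12 and 176. The values as deposited moved the median of all transcripts in the heterozygous comparison from -0.02 to 0.155.

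Sign changes in Cx43 null brain were as follows. Ctnna2 (0.0706) was -0.0926 with array weights and -0.547 without wild-type replicates 3 and 4, Cdh2 (-0.329) 0.035 with quantile scaling, and Tjp1 (-0.00846) 0.0366 with quantile scaling and 0.343 with array weights. Cgn (-0.0896) was 0.01 without wild-type replicates 3 and 4, and Nectin3 (0.0457) was -0.00184 as deposited, -0.0418 with quantile scaling, -0.0274 with loess, -0.159 with array weights and -0.0151 with the replicate block. In heterozygous brain Ctnnd1 (0.0526) was -0.022 with quantile scaling, -0.0308 with loess and -0.017 with array weights. Tjp1 (0.122) was -0.365 with values on all 16 arrays. Cgn (-0.0291) was 0.145 as deposited. Without wild-type replicates 3 and 4, Tjp1 was -0.0232, Cgn 0.0705 and Afdn (0.00826) -0.0386. In Cx32 null brain Ctnna2 (-0.101) was 0.202 with quantile scaling and 0.0535 with loess. With 1 array left out, the values that changed sign ran as follows: in Cx43 null brain Ctnna2 from -0.424 to 0.379, Tjp1 from -0.142 to 0.202, Cgn from -0.223 to 0.0873 and Nectin3 from -0.136 to 0.166. In heterozygous brain Tjp1 ran from -0.152 to 0.317, Cgn from -0.156 to 0.0311, Ctnnd1 from -0.0502 to 0.129 and Afdn from -0.0733 to 0.0983. In Cx32 null brain Ctnna2 ran from -0.596 to 0.208 and Nectin3 from -0.231 to 0.188. The causes were not tested.

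Replicate numbers did not pair the arrays: deviations of same-numbered arrays correlated above 0.1 in 4 of 24 pairs, and 3 of 16 arrays correlated best with their own number. With the replicate number as a block, 2, 4 and 4 of the 10 genes were called in the Cx43 null, Cx43 heterozygous and Cx32 null lines, and 1560, 4376 and 3844 transcripts.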
